A study of Homo sapiens with 4 samples.

Results

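RVX-208 given with TGF-β was compared with TGF-β alone by RNA sequencing of LX-2 cells, an immortalised line derived from human hepatic stellate cells. The comparison covers every gene with at least 1 scaled count per 1000000 counts (CPM) in either of the 2 libraries, which left 15230 of the 63241 genes in the table. Just inside this limit lay RSPH4A and FGF18 at 1.01 CPM in their higher library, and just outside it DHDH at 0.996 CPM. The study held 4 libraries, 1 per condition. All cells were starved for 24 h in medium with 0.5% serum. They were then left untreated (control) or treated for 24 h. The treatments were TGF-β at 20 ng/mL (the label names DMSO), TGF-β with RVX-208 at 5 µM, or TGF-β with the compound BDS4 at 5 µM. The sources used here do not give whether the control cells received the solvent. With 1 library a side there is no replicate check and no test: all brackets hold 95% counting intervals, and variation between cultures was not measured.

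Stellate cells store vitamin A in the healthy liver. After injury, TGF-β signals through its receptor kinases to SMAD transcription factors and helps to turn these cells into contractile myofibroblasts that lay down collagen and fibronectin. BET proteins (such as BRD2 and BRD3) bind acetylated histones through paired bromodomains and help RNA polymerase II to leave the promoter, partly through the kinase complex P-TEFb. RVX-208 (apabetalone) is a BET inhibitor that prefers the second bromodomain, and it was first studied for raising apolipoprotein A-I in liver cells. For BDS4 the labels give a code name alone.

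Most transcripts stood at nearly the same scaled level with and without RVX-208. The median log2 ratio over all genes measured was -0.00, and 80.2% of genes lay within 1.5-fold. The scaling itself centres most ratios on no change, so a shift common to most transcripts would not show. In bulk RNA a change in the number of cells of a type and a change of RNA per cell cannot be told apart. A gene was called where its ratio was at least 2-fold in either direction and its interval did not include 1. This is a threshold of size. By this rule 431 genes were higher (2.83%) and 790 lower (5.19%), so that 8.02% of the genes measured were called. Every list count below is to be read beside these shares and beside the share at its level of expression. Changes of 4-fold or more numbered 94 among the genes called higher and 161 among those called lower. Low genes were called more often: 22.2% of genes between 1 and 3 CPM, 5.63% between 10 and 30 CPM, and 2.55% between 100 and 1000 CPM.

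**Figure D1:**
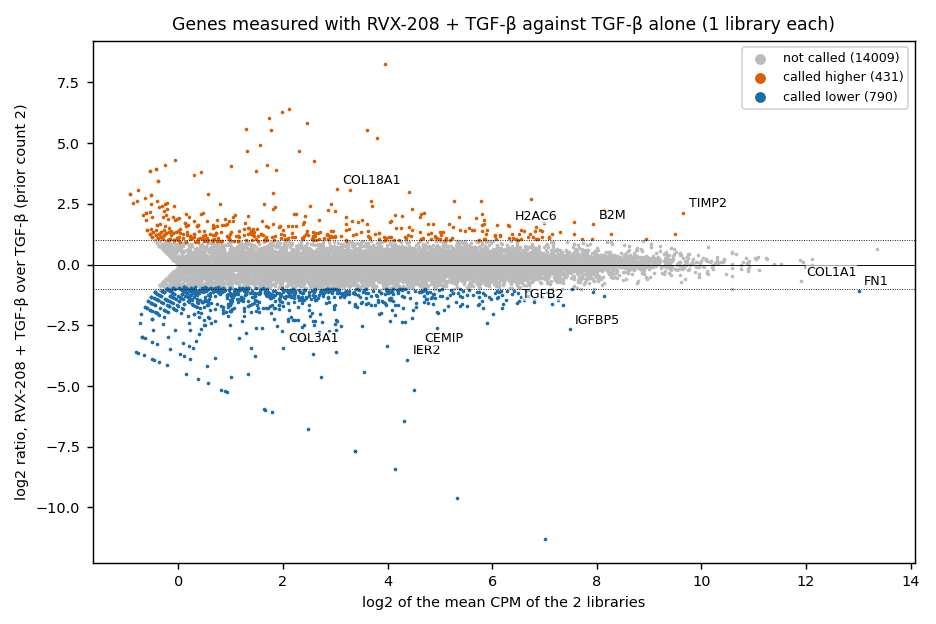
Each point is 1 of the 15230 genes, with the log2 of its mean CPM in the 2 libraries on the horizontal axis and its log2 ratio of RVX-208 with TGF-β over TGF-β on the vertical axis (prior count 2). Dotted lines mark 2-fold, and the 431 genes called higher (orange) and 790 called lower (blue) widen towards low levels, while COL1A1 lies between the lines and FN1 just below them.

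Protein-coding genes of at least 10 CPM were ranked if GENCODE 29 gave them no exon shared with a same-strand gene. Overlaps with genes absent from that release would not be seen. Among the genes so ranked, the largest falls were those of IER2, CEMIP, IGFBP5 and TENM2. IER2, an immediate early gene, measured 108 CPM in the control, 39.0 CPM with TGF-β, 2.49 CPM with RVX-208 and 0.932 CPM with BDS4. Both compound libraries thus lay far below the other two, and the fall against TGF-β was 15.6-fold (11.5 to 21.9). CEMIP, whose product takes part in the breakdown of hyaluronan, stood at 15.996, 44.5, 4.04 and 37.1 CPM in the same order. Here the RVX-208 library alone was low, 11.02-fold (8.61 to 14.3) below TGF-β. IGFBP5, an insulin-like growth factor binding protein, stood at 167, 308, 48.7 and 58.5 CPM and fell 6.33-fold (5.88 to 6.81), below the control level. TENM2, a teneurin of the cell surface, fell from 52.8 to 8.55 CPM, against 22.7 CPM in the control.

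The rest of the 15 largest falls held secreted proteins, a checkpoint ligand and keratins. TNFRSF11B (osteoprotegerin, a decoy receptor) stood at 1.801 CPM in the control, 19.5 CPM with TGF-β and 3.33 CPM with RVX-208, a 5.87-fold fall (4.43 to 7.90). ADAMTS5, a protease that cuts aggrecan, stood at 4.15, 33.9 and 6.53 CPM in the same order, a 5.19-fold fall (4.24 to 6.40). In both genes the level with RVX-208 was nearer to the control than to TGF-β. CD274, which encodes PD-L1, fell from 27.5 to 5.41 CPM with 21.7 CPM in the control, so its level with RVX-208 was below both. MMP9, the gelatinase, fell 4.26-fold (3.48 to 5.25), from 28.6 to 6.71 CPM. KRT7 fell from 13.5 to 2.44 CPM and KRT34 from 10.3 to 1.78 CPM. GIPC3, DCDC2, PLEKHG4B, SERPINA9 and TMEM229B fell between 4.66-fold (PLEKHG4B) and 7.33-fold (GIPC3).

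The 15 largest rises by the same rule began with TCF19, LRRC8E and COL18A1. TCF19, a transcription factor gene, had 14 counts with TGF-β and 460 with RVX-208, or 0.634 and 27.3 CPM, a 43.1-fold rise (25.4 to 79.5). The control stood at 2.89 CPM and BDS4 at 4.61 CPM, so the RVX-208 library was the only high one. COL18A1, the source of endostatin, was also high in that library alone, with 1.13 CPM in the control, 1.63 with TGF-β, 14.7 with RVX-208 and 1.13 with BDS4. DHRS2, a short-chain dehydrogenase, stood at 84.9 CPM in the control, 85.9 with TGF-β, 291 with RVX-208 and 722 with BDS4, a 3.39-fold rise (3.21 to 3.58) that left both compound libraries above the other two. CXCL8, the chemokine interleukin-8, was likewise above both the control and TGF-β, at 26.1 CPM against 13.7 and 7.38 CPM.

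In other large rises too, as in TCF19 and CXCL8, the TGF-β library was the lowest of the 4. LRRC8E, a subunit of volume-regulated anion channels, stood at 20.3 CPM in the control, 1.99 with TGF-β, 17.5 with RVX-208 and 10.3 with BDS4. MED29, a Mediator subunit, had 84.3, 15.4, 94.7 and 104 CPM in the same order, a 6.15-fold rise (5.47 to 6.94) against TGF-β. ITCH, a ubiquitin ligase, had 51.4, 10.8, 66.3 and 73.7 CPM. MDM4, a p53 inhibitor, had 36.0, 3.71, 14.7 and 15.4 CPM. B2M, the light chain of MHC class I, had 284, 118, 371 and 614 CPM and rose 3.15-fold (3.01 to 3.30). The ratios of these genes rest on a low value in the single TGF-β library, and those of TCF19 and CXCL8 do so in part. A property of that culture and an effect of RVX-208 cannot be told apart. The TGF-β library was the lowest for TIMP2, MMP1 and DKK3, given below, as well. RASSF8, PLA2G15 and SOCS6, also lowest with TGF-β, rose between 3.87-fold (PLA2G15) and 4.22-fold (RASSF8). SPOUT1 and JRK rose 4.36-fold and 4.24-fold, but SPOUT1 was lowest with BDS4 (8.53 against 9.65 CPM with TGF-β) and JRK in the control (9.04 against 9.56 CPM).

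**Figure D2:**
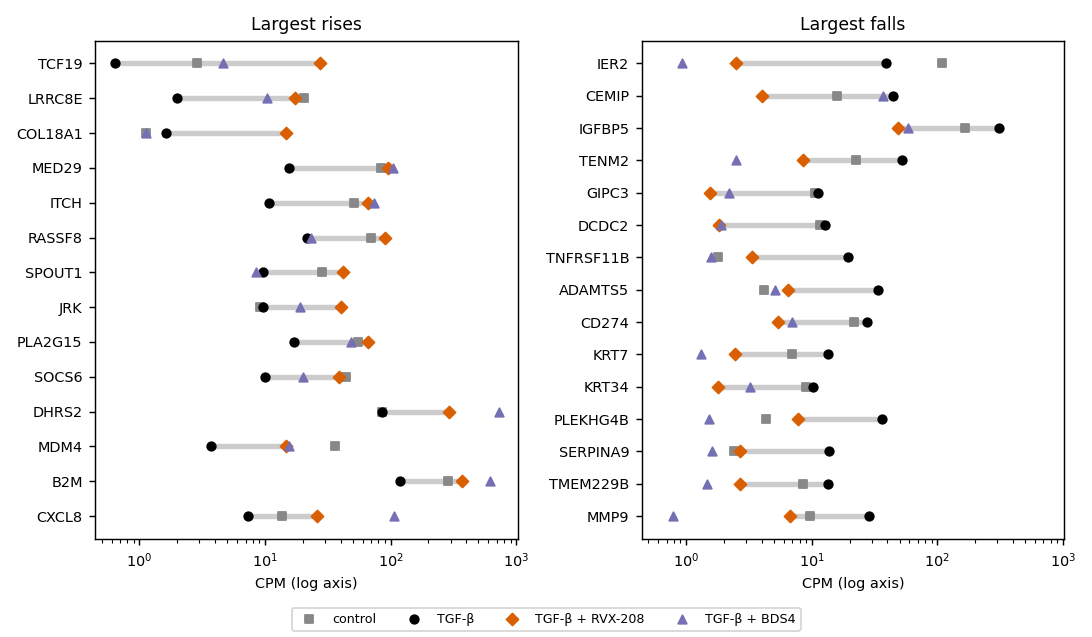
CPM (log axis) in each of the 4 libraries for 14 of the 15 largest rises and the 15 largest falls, with a grey bar from the TGF-β to the RVX-208 value. The TGF-β library is the lowest of the 4 in MED29, ITCH and B2M, while the RVX-208 library is the lowest in CEMIP and IGFBP5 and the highest in TCF19 and COL18A1.

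The upstream sequences of the largest changes are shown because promoters are where BET proteins and sequence-specific factors are known to act. Each is the 250 bases before the start listed by RefSeq (GRCh38.p14), read 5′ to 3′ along the gene. Capitals mark matches, on either strand, to TGANTCA (AP-1), CAGAC (a short SMAD-binding element), CCAAT (NF-Y), GGGCGG (SP1 and KLF factors), TATAAA (the TATA box) or the CArG box of SRF. COL18A1 has 2 listed starts and is not shown. IER2 lies at chr19:13150161-13150410, CEMIP at chr15:80779120-80779369, TCF19 at chr6:31158339-31158588 and LRRC8E at chr19:7888260-7888509, all on the + strand.
IER2: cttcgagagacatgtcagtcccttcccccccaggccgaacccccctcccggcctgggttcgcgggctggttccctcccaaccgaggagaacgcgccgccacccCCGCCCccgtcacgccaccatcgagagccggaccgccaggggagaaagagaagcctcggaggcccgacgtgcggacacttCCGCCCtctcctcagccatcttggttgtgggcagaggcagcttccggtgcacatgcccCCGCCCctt
CEMIP: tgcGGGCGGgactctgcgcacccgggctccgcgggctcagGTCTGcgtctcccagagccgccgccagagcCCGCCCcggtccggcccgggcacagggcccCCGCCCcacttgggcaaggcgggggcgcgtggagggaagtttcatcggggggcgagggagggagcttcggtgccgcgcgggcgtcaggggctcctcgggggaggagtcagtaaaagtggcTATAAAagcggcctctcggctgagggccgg
TCF19: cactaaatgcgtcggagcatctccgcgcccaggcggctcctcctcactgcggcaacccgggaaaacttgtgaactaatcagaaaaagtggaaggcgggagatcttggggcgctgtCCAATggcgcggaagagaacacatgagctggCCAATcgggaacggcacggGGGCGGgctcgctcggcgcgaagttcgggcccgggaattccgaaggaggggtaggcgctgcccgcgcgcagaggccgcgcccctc
LRRC8E: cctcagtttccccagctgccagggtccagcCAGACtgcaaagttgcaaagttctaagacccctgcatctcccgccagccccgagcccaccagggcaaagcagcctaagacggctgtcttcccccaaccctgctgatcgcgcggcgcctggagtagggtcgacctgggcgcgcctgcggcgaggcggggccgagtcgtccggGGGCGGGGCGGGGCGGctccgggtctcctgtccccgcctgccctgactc
The windows of the IER2, CEMIP and LRRC8E genes each held 3 GGGCGG matches, which overlap one another in LRRC8E, and that of TCF19 held 1 with 2 CCAAT matches. CEMIP alone had a TATAAA match, 30 bases before the start, and none of the 4 had a TGANTCA or CArG match. Over 34943 promoters of the same length, 42.5% held GGGCGG, 38.01% CAGAC, 32.0% CCAAT, 10.8% TATAAA, 6.59% TGANTCA and 1.16% a CArG box. A match is a description of letters and shows no binding.

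The genes that RVX-208 targets and those known to answer BET inhibitors were read next. All 15 BET and P-TEFb genes listed were measured and none was called (median log2 0.14). BRD2 stood at 43.7 CPM with TGF-β and 53.4 with RVX-208, and BRD3 at 45.6 and 50.2. HEXIM1, which holds P-TEFb inactive and is a widely used mark of BET inhibition, stood at 152, 166, 252 and 622 CPM in the 4 libraries, 1.51-fold (1.45 to 1.58) above TGF-β with RVX-208. It did not reach the 2-fold rule there. Of 11 measured genes often raised by BET inhibitors, 4 rose and 0 fell (median 0.90), and all 11 had a ratio above 1. Of all genes measured, 2.83% rose. SERPINI1, the neuronal serpin, went from 3 counts, which is the floor, to 21 counts, a 9.18-fold rise (2.74 to 48.1). The others called were the histone genes H2BC4, H2BC8 and H2BC21. H2BC4 is also in the histone list below, so the rises of these lists are not separate results. SAT1, the polyamine acetyltransferase, stood at 62.2 and 116 CPM and was not called.

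Genes often lowered by BET inhibitors had 17 measured members, of which 3 fell and 0 rose (median -0.33), where 5.19% of all genes were lower. HAS2, a hyaluronan synthase, fell 3.77-fold (2.68 to 5.44), from 8.97 to 2.38 CPM. CSF1R, a growth factor receptor best known from macrophages, fell 3.33-fold (2.18 to 5.27), and PDGFRB, the PDGF receptor of stellate cells, 2.14-fold (1.999 to 2.30). PDGFRB measured 35.01 CPM in the control, 136 with TGF-β, 63.3 with RVX-208 and 5.98 with BDS4, so the RVX-208 level lay between TGF-β and control. MYC, the proliferation factor most often cited as a BET target, stood at 36.6, 16.8, 16.9 and 12.6 CPM in that order, with a ratio of 1.01 (0.859 to 1.18) to TGF-β. CCND1, the cyclin of G1, stood at 1279.7 CPM with TGF-β and 966 with RVX-208, and IL6 at 18.8 and 12.4 CPM. Neither was called.

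Histone transcripts were higher. Of 25 measured histone genes 10 rose and 1 fell (median log2 0.68), and 22 of the 25 had a ratio above 1. Of all genes 2.83% rose, with 7.83% between 1 and 3 CPM and 4.16% between 3 and 10 CPM, where some histone genes lay. H4C8 stood at 24.6 CPM in the control, 33.0 with TGF-β, 104 with RVX-208 and 335 with BDS4, a 3.14-fold rise (2.88 to 3.43). H1-4, a linker histone, rose from 10 to 39 counts. H4C14 went from 32.5 to 87.3 CPM and H3-3A, which encodes the replication-independent H3.3, from 16.4 to 40.2 CPM. MACROH2A2, a variant histone of silent chromatin, fell from 25.9 to 12.7 CPM. H2AZ1 stood at 742 and 589 CPM and was not called. Transcripts of the replication-dependent histones mostly end without a poly(A) tail, and the library kit selected mRNA, so these counts cover the polyadenylated share at most. Transcripts of the DNA replication list, which held 34 measured genes, had 0 calls, against 2.55% of all genes between 100 and 1000 CPM.

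The neighbouring histone genes H2AC6 and H2BC4 on chromosome 6 are transcribed away from each other from starts that GENCODE 29 places 219 bases apart. H2AC6 stood at 58.2 CPM in the control, 39.6 with TGF-β, 120 with RVX-208 and 110 with BDS4, a 3.04-fold rise (2.80 to 3.29). H2BC4 stood at 5.23, 4.94, 16.7 and 14.9 CPM, a 3.38-fold rise (2.70 to 4.26). Both partners were thus high in both compound libraries. The 250 bases before the RefSeq start of H2AC6 are shown because they hold the whole region between the pair. RefSeq places this start downstream of the GENCODE start, so the window also runs past that region. It is chr6:26123922-26124171 in the direction of H2AC6, with the same capitals as above, and was picked after these values were seen.
H2AC6: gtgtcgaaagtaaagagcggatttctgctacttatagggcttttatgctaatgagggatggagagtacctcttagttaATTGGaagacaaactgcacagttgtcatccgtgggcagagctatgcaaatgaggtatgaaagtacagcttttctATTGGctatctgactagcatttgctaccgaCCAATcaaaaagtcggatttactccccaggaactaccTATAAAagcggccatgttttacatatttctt
The stretch held 3 CCAAT matches in the 2 orientations and a TATAAA match that begins 31 bases before the RefSeq start of H2AC6, at the GENCODE start. In other pairs H2AC25 and H2BC26 had ratios of 2.001 and 1.84, and H2AC11 and H2BC11 had 1.55 and 2.12. H2AC8 and H2BC8 had 1.48 and 2.18, H2AC20 and H2BC21 had 0.570 and 2.06, and H2BC17 and H3C12 had 2.19 and 8.53. Some of these ratios rest on low levels. H2AC20 stood at 1.04 CPM with TGF-β and 0.594 with RVX-208, H2BC26 at 1.13 and 2.08, and H3C12 at 0.181 and 1.54.

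**Figure D3:**
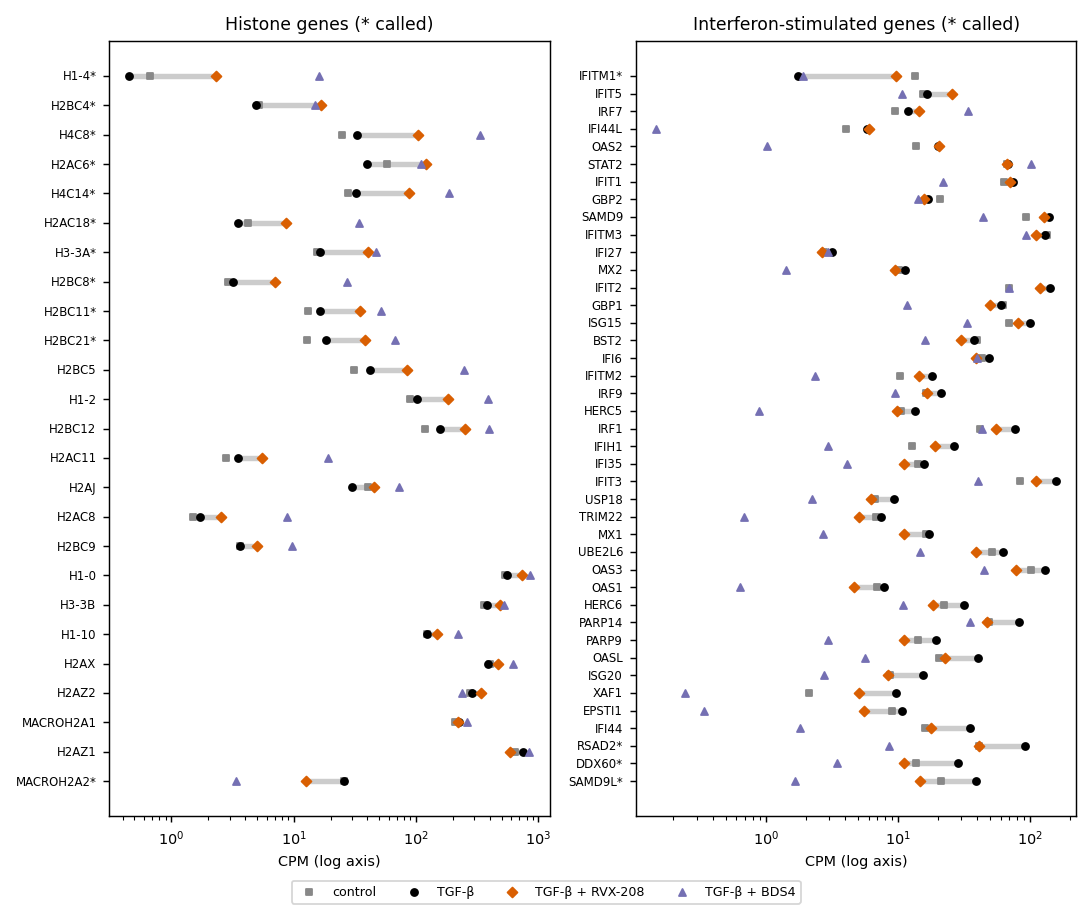
CPM (log axis) of the 25 measured histone genes and 41 of the 42 measured interferon-stimulated genes in the 4 libraries, ordered by the ratio of RVX-208 with TGF-β over TGF-β, with a grey bar between those 2 values and a star at each gene called. Histone bars run mostly to the right from the TGF-β value, with 10 rises and 1 fall, and interferon bars mostly to the left, with 1 rise and 3 falls.

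Collagen transcripts were lower for some chains and barely apart for others. Fibrillar collagens, which form the fibres of scar, had 9 measured genes, of which 3 fell and 1 rose (median -0.68). Of all genes measured, 5.19% were lower and 2.83% higher. COL1A1 carried by far the most counts and stood at 2075 CPM in the control, 4705 with TGF-β, 2935 with RVX-208 and 103 with BDS4. Its level with RVX-208 lay between TGF-β and control, 1.60-fold (1.59 to 1.62) below TGF-β, and was not called. COL1A2, its partner chain in type I collagen, was called and fell from 181 to 27 counts (8.20 to 1.60 CPM). COL3A1 stood at 6.74 CPM in the control and 7.38 with TGF-β, and at 10 counts, or 0.594 CPM, with RVX-208. COL5A3 fell from 55 to 6 counts. COL5A1, which stood at 1197 CPM with TGF-β, measured 999 CPM with RVX-208. COL11A2, a minor chain, rose from 13 to 23 counts. The called chains other than COL1A2 and COL3A1 were thus at most 2.49 CPM in their higher library. Between 1 and 3 CPM 22.2% of all genes were called.

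Type VI collagen, a beaded filament next to the cell, had lower values in its 3 main chains. COL6A3 stood at 51.6 CPM in the control, 250 with TGF-β, 78.5 with RVX-208 and 8.73 with BDS4, a 3.18-fold fall (3.00 to 3.38). COL6A1 stood at 201, 403, 162 and 187 CPM, a 2.48-fold fall (2.38 to 2.59) to below the control. COL6A2 measured 439 and 282 CPM and was not called. With COL16A1 and COL17A1, 4 of the 10 measured genes of this list fell and 0 rose (median -0.62), and the ratio was under 1 in all 10. Of all genes measured, 5.19% were lower. Basement membrane genes had 2 falls, COL8A2 among them, and 1 rise (COL18A1) among 23 (median -0.15). Their most abundant chains COL4A1 and COL4A2, which stood at 928 and 2024 CPM with TGF-β, stood at 813 and 1774 CPM with RVX-208 and were not called.

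Matrix glycoproteins had 5 falls and 0 rises among 33 measured genes (median -0.44), where 5.19% of all genes were lower. The ratio was under 1 in 32 of the 33. FN1, which encodes fibronectin, stood at 2001 CPM in the control, 11140 with TGF-β, 5299 with RVX-208 and 2726 with BDS4. LTBP2, a microfibril protein of the latent TGF-β binding protein family, stood at 18.01, 212, 69.4 and 8.09 CPM, a 3.05-fold fall (2.86 to 3.25). POSTN, periostin, fell from 69 to 2 counts, 26.3-fold (7.01 to 222), with 6 counts in the control. MATN2 and THBS4 also fell. THBS1, which activates latent TGF-β, stood at 2035 and 1026 CPM, and SPARC, which binds collagen, at 974 and 594. Neither was called. TGFBI, an adhesion protein named for its induction by TGF-β, stood at 2347 and 2020.3 CPM. The summed level of the list went from 20099 to 11728 CPM, and FN1 made up most of the difference.

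Proteoglycans had 3 falls and 1 rise among 13 (median -0.15), where 5.19% of all genes were lower and 2.83% higher. VCAN, versican, stood at 29.5 CPM in the control, 98.2 with TGF-β, 46.0 with RVX-208 and 13.8 with BDS4. GPC1, glypican-1, stood at 252, 176, 70.6 and 167 CPM, so only the RVX-208 library was far below the others. PODN fell from 26 to 5 counts and GPC5 rose from 15 to 45 counts. Both lay between 1 and 3 CPM in their higher library, where 22.2% of all genes were called. In hyaluronan metabolism, CEMIP and HAS2 fell while HAS3 rose from 16 to 50 counts. These were 3 calls among 9 genes, with a median of 0.40 and a mean of -0.22, which differ in sign. CD44, the hyaluronan receptor, stood at 252 and 356 CPM and was not called.

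**Figure D4:**
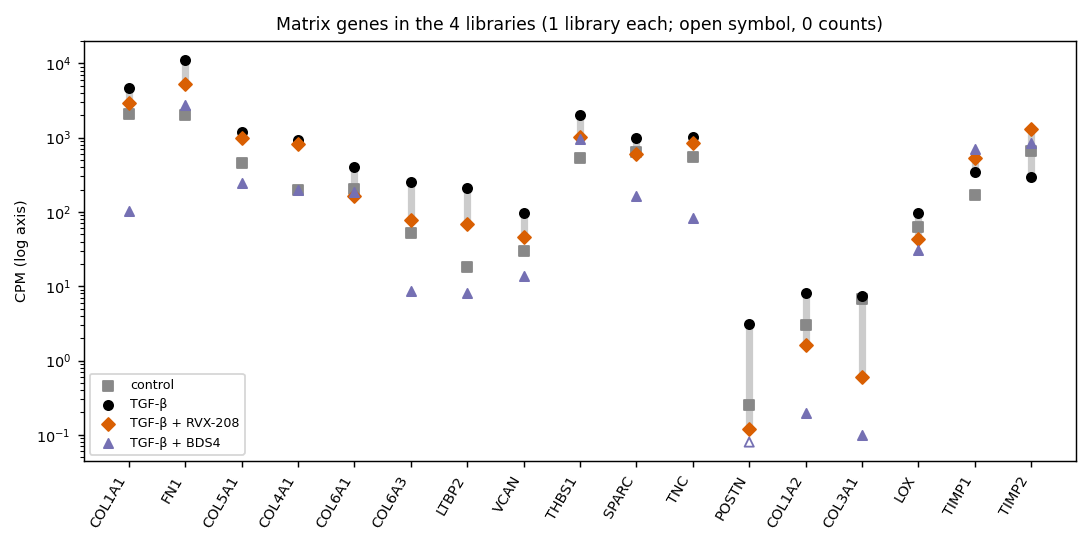
CPM (log axis) of 17 matrix genes in the 4 libraries, with a grey bar from the TGF-β to the RVX-208 value and an open symbol for 0 counts. FN1, COL6A1, COL6A3, LTBP2, VCAN, COL1A2, COL3A1, POSTN and LOX drop from TGF-β to RVX-208 by at least 2-fold. TIMP2 rises, and COL5A1 and COL4A1 move little.

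The enzymes that process collagen had 2 falls and 0 rises among 25 (median -0.01). LOX, which cross-links collagen and elastin, stood at 62.9 CPM in the control, 95.7 with TGF-β, 43.5 with RVX-208 and 30.5 with BDS4, a 2.20-fold fall (2.02 to 2.40). LOXL4 fell 2.36-fold, from 24.3 to 10.3 CPM. P4HA2, a prolyl hydroxylase, stood at 234 and 228 CPM and SERPINH1, a collagen chaperone, at 132 and 144. PLOD2, a lysyl hydroxylase, stood at 179 and 274 CPM, 1.53-fold higher and not called. Metalloproteinases and their inhibitors had 2 rises and 1 fall among 15 (median -0.29). TIMP2, an inhibitor of metalloproteinases, measured 652 CPM in the control, 298 with TGF-β, 1313 with RVX-208 and 860 with BDS4. It shares exons with a neighbouring gene, so its reads may be split between them. MMP1, the interstitial collagenase, rose from 26.8 to 71.6 CPM, close to the control at 74.1 CPM. TIMP1 stood at 347 and 529 CPM, 1.53-fold higher (1.48 to 1.57), and MMP2 at 251 and 172, neither called. ADAM and ADAMTS proteases had 3 falls and 0 rises among 21 (median -0.21), where 5.19% of all genes were lower. The falls were ADAMTS5, ADAMTS15 and ADAMTS1, which went from 134 to 52.8 CPM.

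Plasminogen and coagulation genes had 1 fall and 0 rises among 21 (median 0.06). The called member was F2RL2, which fell from 41 to 12 counts. Connective tissue growth factor CCN2 stood at 545 and 612 CPM, 1.12-fold apart (1.09 to 1.15), against 7432 CPM with BDS4. CCN3, a relative with opposed actions in some settings, fell from 7.16 to 3.15 CPM, the 1 call among 3 measured CCN genes (median -0.12).

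In the TGF-β pathway 4 listed ligand, receptor and latency genes fell, of which TGFB2 was the only ligand. Falls among SMADs, feedback genes and targets were near the share of all genes. The feedback inhibitors PMEPA1 and SMAD7 were not called. Ligands, receptors and latency proteins had 4 falls and 0 rises among 28 (median -0.17), where 5.19% of all genes measured were lower. TGFB2 stood at 88.4 CPM in the control, 133 with TGF-β, 44.1 with RVX-208 and 19.4 with BDS4, a 3.02-fold fall (2.78 to 3.28). LTBP2, LRRC32 (GARP, which holds latent TGF-β on the cell surface) and ITGB6 (an integrin chain that activates it) also fell, the last from 35 to 6 counts. At the level of ITGB6, between 1 and 3 CPM, 14.4% of all genes were lower. TGFB1 stood at 827 and 831 CPM, a ratio of 1.01 (0.983 to 1.03). The receptors TGFBR1 (52.9 and 64.0 CPM) and TGFBR2 (153 and 110 CPM) were not called.

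SMADs, feedback genes and direct targets had 2 falls and 0 rises among 30 (median 0.09), near the 5.19% of all genes that were lower. SNAI1, the Snail repressor, stood at 4.86 CPM in the control, 20.3 with TGF-β, 8.97 with RVX-208 and 8.97 with BDS4. NOX4, an oxidase that makes hydrogen peroxide, fell from 56 to 19 counts, with 1 count in the control. PMEPA1, a feedback inhibitor, stood at 5.78 CPM in the control, 355 with TGF-β and 357 with RVX-208, so the values with and without RVX-208 were nearly equal. SMAD7, the inhibitory SMAD, stood at 25.1, 92.9 and 131 CPM, and JUNB at 27.6, 195 and 226 CPM in that order. IL11, a cytokine of activated fibroblasts, stood at 65.7 CPM in the control, 319 with TGF-β and 627 with RVX-208, just under the 2-fold rule. In the BMP branch 1 of 17 genes was called: GREM1, a secreted BMP antagonist, stood at 2.30, 9.65, 1.07 and 10.6 CPM in the 4 libraries, a fall of 9.02-fold (5.57 to 15.5), with the RVX-208 library the lowest of the 4. The median of the BMP list was 0.14 and its mean -0.21, which differ in sign.

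Contractile genes had 2 falls and 1 rise among 34 (median -0.09). ACTA2, the α-smooth muscle actin by which myofibroblasts are recognised, stood at 21.5 CPM in the control, 27.0 with TGF-β, 24.6 with RVX-208 and 19.2 with BDS4, and its interval against TGF-β included no change. TAGLN stood at 700 and 541 CPM and MYL9 at 546 and 327, neither called. MYOCD, myocardin, the coactivator of smooth muscle genes, stood at 16.5, 46.6, 18.9 and 3.19 CPM, a 2.46-fold fall (2.17 to 2.80). ACTG2 fell from 8.29 to 3.98 CPM, and TPM4, a tropomyosin, rose from 428 to 1024 CPM. Integrins and focal adhesion genes had 2 falls (ITGB6, TNS3) and 0 rises among 33 (median -0.19), near the 5.19% of all genes that were lower. Mesenchymal transcription factors had 3 falls and 0 rises among 32 (median -0.23): SNAI1, RUNX2 and FOXS1. FOXS1, a forkhead factor, had 1 count in the control, 268 with TGF-β, 64 with RVX-208 and 0 with BDS4. ZEB1, TWIST1 and CDH2 were not called.

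Targets of YAP and TAZ had 2 falls and 0 rises among 26 (median -0.16), near the 5.19% of all genes that were lower. The falls were TGFB2 and AJUBA, the latter no longer called when its shared reads were summed. The Notch list had 1 fall among 17 (median -0.14): NOTCH3, a receptor of mural cells, went from 23.3 to 10.5 CPM. JAG1 stood at 21.9 CPM in the control, 358 with TGF-β and 276 with RVX-208. In the Wnt list 3 genes fell and 2 rose among 29 (median -0.13). WNT7B fell from 96 to 9 counts, and WNT6 from 25 to 0 counts, at least 6.35-fold against a floor of 3 counts in the RVX-208 library. DKK3, a secreted Dickkopf protein, rose 2.08-fold (1.99 to 2.17), from 155 to 323 CPM. Guidance genes had 6 falls and 1 rise among 38 (median -0.19), where 5.19% of all genes were lower and 2.83% higher. SEMA4C fell from 52.7 to 23.5 CPM, with TENM2, SEMA3D and SEMA3A also among the falls, and NGFR rose from 24.1 to 51.4 CPM, against 553 CPM with BDS4.

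In the PDGF and VEGF list 2 of 19 genes fell and 0 rose (median -0.04). ANGPTL2, an angiopoietin-like secreted protein, stood at 23.03 CPM in the control, 69.6 with TGF-β, 21.4 with RVX-208 and 15.99 with BDS4, a 3.24-fold fall (2.89 to 3.65) to about the control level. PDGFB stood at 48.4 and 37.0 CPM. The EGF, FGF and HGF list had 1 fall and 1 rise among 19 (median 0.05): NRG1, neuregulin, fell from 28.0 to 8.79 CPM, and AREG, amphiregulin, rose from 17 to 40 counts. The IGF axis had 3 falls and 0 rises among 17 (median -0.09), where 5.19% of all genes were lower. Besides IGFBP5, PAPPA, the protease that cleaves IGF binding proteins, fell 3.43-fold (3.09 to 3.82), from 88.2 to 25.7 CPM, and the RNA-binding IGF2BP1 from 74 to 21 counts.

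Immediate early genes did not move together. Of 29 measured, 3 fell (IER2, EGR2 and EGR3) and 2 rose (KLF2 and ARC), with a median of 0.10 and a mean of -0.10, which differ in sign. EGR2, a zinc finger factor, stood at 0.586 CPM in the control, 36.1 with TGF-β, 10.7 with RVX-208 and 2.70 with BDS4, a 3.37-fold fall (2.86 to 3.99). EGR1, its relative, stood at 37.4, 104, 158 and 473 CPM and was not called. KLF2 stood at 32.7, 24.9, 64.6 and 175 CPM and rose 2.60-fold (2.34 to 2.89). Among 15 AP-1 genes FOSL2 and ATF3 rose and BATF3 fell (median 0.08). FOSL2 stood at 402 CPM in the control, 86.0 with TGF-β and 184 with RVX-208, so its level with RVX-208 was still below the control. JUN measured 401 and 409 CPM. The ERK feedback list had 1 fall among 17 (median 0.12), SPRY1, which went from 44 to 10 counts.

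Interferon-stimulated genes had 3 falls and 1 rise among 42 (median -0.46), shares near the 5.19% of all genes that were lower and the 8.02% called. The ratio was under 1 in 36 of the 42. RSAD2, viperin, stood at 41.5 CPM in the control, 91.4 with TGF-β, 41.0 with RVX-208 and 8.63 with BDS4, a 2.23-fold fall (2.05 to 2.44). SAMD9L stood at 21.1, 39.1, 14.8 and 1.67 CPM and DDX60 at 13.6, 28.8, 11.2 and 3.43 CPM. In all 3 the level with RVX-208 was at or below the control. IFITM1, the one rise, lost its call when reads of overlapping genes were summed (log2 0.27). Of the MHC class I list, B2M rose and TAPBPL, a relative of tapasin, fell among 15 (median -0.28).

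NF-κB and inflammatory genes had 3 falls and 0 rises among 26 (median -0.26), where 5.19% of all genes were lower. TNFSF15, a cytokine of the TNF family, had 0.712 CPM in the control, 23.5 with TGF-β, 5.88 with RVX-208 and 0.343 with BDS4, a 3.99-fold fall (3.21 to 5.00). CSF2 fell from 46 to 13 counts, and REL was called before but not after overlapping reads were summed (log2 -0.01). Among 11 chemokines CXCL12 fell and CXCL8 rose (median 0.41). CXCL12, which draws leukocytes and stem cells, stood at 35.05, 41.0, 13.4 and 1.77 CPM, a 3.05-fold fall (2.64 to 3.55). In the IL-6 family 1 of 14 genes was called (median 0.04, mean -0.12, which differ in sign), CLCF1, and its call too was lost on summing (log2 -0.17). Complement genes had 3 falls and 0 rises among 14, with a median of 0.01 that was -0.02 under scaling by total counts and -0.01 under DESeq2 size factors, and a mean of -0.21. C1R fell from 62.0 to 24.2 CPM and C3AR1 from 45 to 7 counts, while C1S lost its call on summing.

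Lipid genes are of interest because RVX-208 was developed for apolipoprotein A-I. APOA1 itself had 4 counts in the control, 1 with TGF-β, 0 with RVX-208 and 0 with BDS4, which is at or near the floor of 3 counts, so no ratio is given. Lipoprotein and lipid transport genes had 3 falls and 0 rises among 17 (median -0.52), where 5.19% of all genes were lower. APOL6 fell from 43.2 to 16.5 CPM and LPL, lipoprotein lipase, from 67 to 12 counts. ABCA1, the cholesterol exporter, stood at 118 and 62.4 CPM and was not called.

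Cholesterol synthesis genes had 0 calls among 25 (median 0.19). HMGCS1 stood at 170 CPM in the control, 639 with TGF-β and 678 with RVX-208, so it was as high with RVX-208 as without it. TM7SF2, a sterol reductase, stood at 16.5 and 31.0 CPM. Fatty acid genes had 2 falls and 0 rises among 27 (median 0.24). PLIN2, the coat protein of lipid droplets, fell from 8.11 to 3.21 CPM and DGAT2, which makes triglycerides, from 9.28 to 4.04 CPM. FASN stood at 845 and 1108 CPM and SCD at 2173 and 2646, neither called.

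Stress responses held few calls, as did genes between 100 and 1000 CPM in general (2.55%). NRF2 targets had 1 fall, PIR, among 30 (median 0.10). TXNRD1 stood at 194 CPM with TGF-β and 249 with RVX-208, against 2449 CPM with BDS4. ATF4 targets had 1 fall among 28 (median -0.22): PPP1R15A, which helps to restart translation, went from 124 to 55.8 CPM. Chaperones of the endoplasmic reticulum had 1 rise among 30 (median 0.22), TXNDC5, which lost the call when its reads were summed with those of BLOC1S5-TXNDC5 (log2 0.36). HSPA5 stood at 739 and 992 CPM. The 17 cytosolic heat shock genes and the 7 metallothioneins measured had 0 calls, with medians of 0.10 and 0.23 (the mean of the metallothioneins was -0.02).

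The cell cycle lists had 0 calls in the 41 measured genes of mitosis (median -0.08), the 34 of DNA replication (0.06) and the 15 D cyclins, their kinases and inhibitors (0.03). Few abundant genes were called at all, 2.95% between 30 and 100 CPM and 2.55% between 100 and 1000 CPM. The 0 calls therefore do not set these lists apart. PLK1, a mitotic kinase, stood at 131 CPM with TGF-β and 70.1 with RVX-208, a 1.87-fold difference (1.74 to 1.998), and CKS2 at 95.3 and 170 CPM. MCM5, a helicase subunit, stood at 245 and 151 CPM, and RRM2, which supplies deoxynucleotides, at 225 and 401. CDKN1A, which encodes p21, stood at 108 and 177 CPM, 1.64-fold apart (1.55 to 1.73). Among 26 p53 genes 1 was called, the rise of MDM4 (median 0.06). The MYC network and ribosome biogenesis had 0 calls among 35, with a median of 0.01 that was -0.02 under scaling by total counts and -0.01 under DESeq2 size factors. Glycolysis and hypoxia (33 genes, median 0.15), lysosome and autophagy (40 genes, 0.06) and the 13 mitochondrial mRNAs (0.16) had 0 calls as well.

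Nuclear receptors had 2 falls and 0 rises among 27 (median -0.02), near the 5.19% of all genes that were lower. RXRB, a retinoid partner receptor, went from 107 to 6 counts, and RARG, a retinoic acid receptor, from 22.96 to 11.2 CPM. Clustered protocadherins had 7 falls and 1 rise among 19 (median -0.52), but these genes share their last exons. The falls of PCDHGA3, PCDHGA8, PCDHGA9 and PCDHGB1 became a common log2 ratio of -0.73 when the cluster was summed, which was not called. Of 25 long non-coding RNAs listed and measured, 4 rose and 1 fell (median 0.19). NEAT1, which builds nuclear paraspeckles, stood at 66.8 CPM in the control, 60.6 with TGF-β, 127 with RVX-208 and 968 with BDS4. MALAT1, of nuclear speckles, stood at 40.9, 24.4, 69.1 and 69.0 CPM, so the TGF-β library was the lowest. MIR100HG rose from 25.1 to 89.3 CPM, and H19 from 4 to 24 counts. OIP5-AS1, the fall in the list, went from 80.4 to 26.4 CPM and lost its call on summing (log2 -0.68). Outside the list, the non-coding LINC00205 fell from 64.3 to 19.5 CPM.

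**Figure D5:**
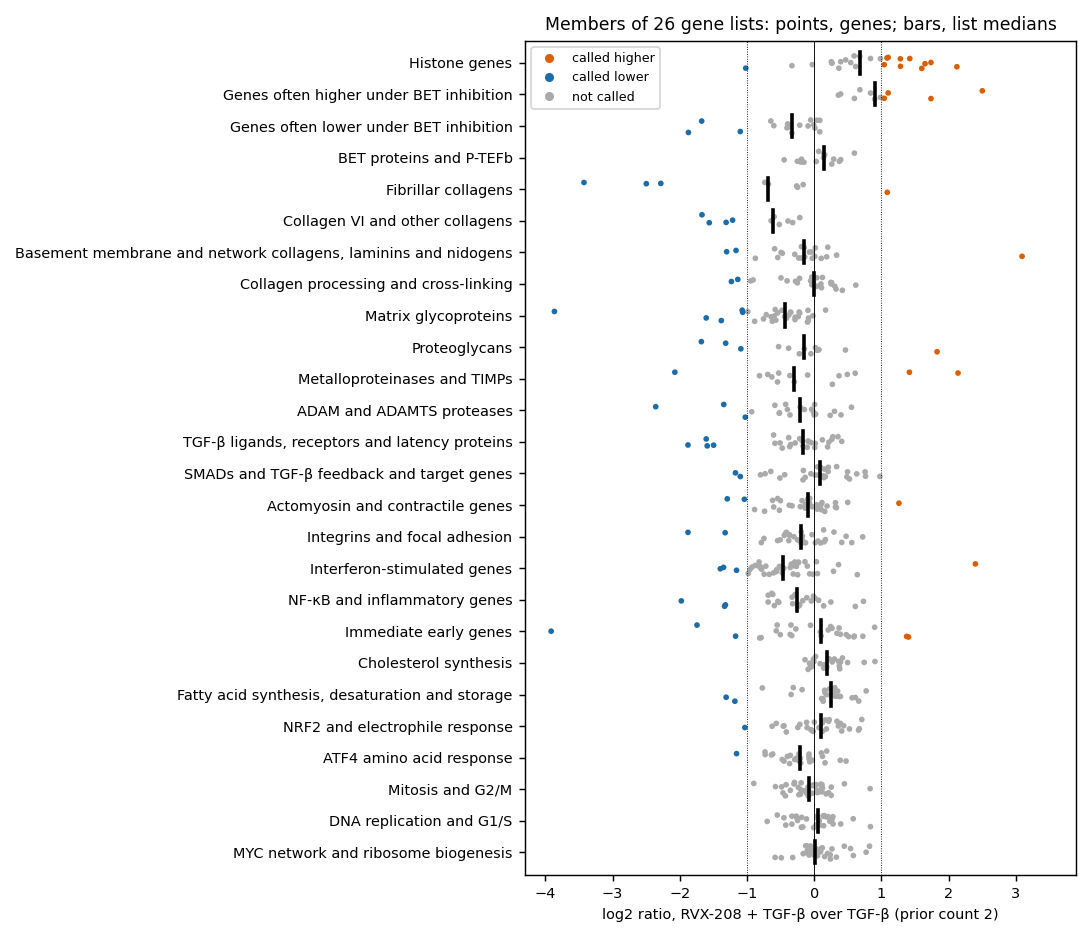
Log2 ratios of RVX-208 with TGF-β over TGF-β (prior count 2) for the measured members of 26 gene lists, 1 point per gene, with a black bar at each list's median and dotted lines at 2-fold. Histone genes (median 0.68) and genes often higher under BET inhibition (0.90) sit to the right, and the cell cycle lists close to 0. Fibrillar collagens (-0.68), collagen VI and other collagens (-0.62), interferon-stimulated genes (-0.46) and matrix glycoproteins (-0.44) sit to the left. The histone list and the list often higher under BET inhibition share H2BC4.

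The libraries differed in depth. Totals were 22503094 counts for the control, 21860122 for TGF-β, 21618509 for BDS4 and 17022369 for RVX-208, and 3 counts equal 0.136 CPM with TGF-β and 0.178 CPM with RVX-208. Mitochondrial ribosomal RNA took 0.248% of counts with TGF-β and 0.230% with RVX-208, against 0.903% with BDS4. Of the stellate and myofibroblast markers 5 of 11 measured genes fell and 0 rose (median -0.68), where 5.19% of all genes were lower. The falls were PDGFRB, COL1A2, COL3A1, LOX and POSTN, all counted in lists above, while ACTA2, TAGLN, COL1A1 and TIMP1 were not called. The summed level was 9699 CPM with TGF-β and 8313 with RVX-208. DES, the marker desmin, had 0 counts in both, and VIM, vimentin, stood at 3551 and 4052 CPM. Quiescence genes had 1 rise (NGFR) and 1 fall (PLIN2) among 11, with a median of 0.01 that turned to -0.02 under total counts and -0.01 under DESeq2 size factors, and a mean of -0.04. LRAT, which makes vitamin A esters, had 0 counts.

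Markers of other liver cells were at or near 0 or shared with the line. Of 13 hepatocyte markers 2 passed 1 CPM (SERPINA1 and ASGR1), with a summed level over the whole list of 11.8 CPM with TGF-β and 8.79 with RVX-208, and TTR, APOA2, APOB, APOC3, CYP3A4 and FGB had 0 counts in both. Endothelial markers passing were 4 of 11 (24.2 and 19.1 CPM), none called, with STAB2 at 0 counts in both. Of the macrophage and lymphocyte list, 3 of 13 passed (22.4 and 12.8 CPM). CSF1R and CD14 fell, while PTPRC, MARCO, AIF1, TYROBP, CD3D, CD3E, MS4A1 and NKG7 had 0 counts in both. Of 10 cholangiocyte and epithelial markers 6 passed (873 and 564 CPM). KRT7 fell, and the simple keratins KRT8 (296 and 191 CPM) and KRT18 (452 and 299 CPM) were not called. CFTR had 0 counts in both, and EPCAM 2 counts in each.

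How reads were divided between genes bears on the largest ratios. Of the genes called, 270 overlap an exon of some other same-strand gene (22.1%, against 17.3% of the genes measured), and 196 of them were no longer called once the overlapping genes had been added together. Of the 15 largest rises without that exclusion 6 would have shared exons, among them TXNDC5 and TIMP2, and of the 15 largest falls 8. Protein-coding genes were called in 6.78% of cases, long non-coding classes in 16.1%, and 495 measured genes that are not in GENCODE 29 in 18.6%. The sources used here do not give whether the counting used strand. A gene that shares exon bases with a gene on the opposite strand may therefore hold some of that gene's reads. This limit applies to 64 of the genes named by rule, IER2, CEMIP, COL18A1, TCF19 and LRRC8E among them. Others among the largest changes were IGFBP5, DCDC2, KRT7, SERPINA9, MMP9, RASSF8, SPOUT1, JRK and PLA2G15. It applies as well to GREM1, LTBP2, LOX, HAS2 and RXRB, among others. COL3A1, COL17A1, TGFB2, ITGB6, C1R, TIMP2, MALAT1, MIR100HG and H19 also overlap a same-strand gene, and each kept its call after summing, while NEAT1 was not recomputed. ENSG00000263798, a non-coding gene, had 1782 counts with TGF-β and 0 in the 3 other libraries, and shares exons with 2 genes. When those were summed the log2 ratio was -0.22.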

How the data were processed

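Polyadenylated RNA of 4 LX-2 cultures, 1 per condition, was sequenced as stranded paired-end libraries on a NovaSeq, per the labels' protocols. The authors' gene counts were deposited as whole numbers; TopHat2 2.0.6, CASAVA 1.8 and the build GRCh38 are named in the submitters' processing notes. The deposited FPKM values came from StringTie 1.3.0, per the series' design text, and were not used for any result. The counting tool, its annotation release and its strand setting are not stated.

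Counts were scaled to CPM with TMM factors from edgeR 4.0.16 (R 4.3.3) over the 4 libraries. The ratio of RVX-208 with TGF-β to TGF-β was given an exact conditional (Clopper-Pearson) 95% interval with scipy 1.17.1, which covers counting error only. Reads carried no molecular identifiers. A gene was called at a ratio of 2 or more either way with an interval that left out 1. No p-value was computed. List medians used log2 ratios with a prior count of 2, and a count of 0 was set against a floor of 3 counts. The calculation was tested on simulated counts. Exon overlap, biotypes and starts were taken from GENCODE 29 and promoters from RefSeq.

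The comparison, its members and the 62 gene lists were chosen with earlier results of these data known. Named genes were the 15 largest rises and falls, ordered by the end of the interval closer to 1 (protein-coding, at least 10 CPM, no shared exon), up to 4 called members per list or 2 where none was called, the 5 largest rises and falls of non-coding genes, and a set fixed by name. Some genes that this rule names are not reported here. Other genes named were chosen after their values were seen. Alternatives changed the scaling (total counts, TMM over the pair, DESeq2 1.42.0 size factors), the filter, the call rule, the prior count and the treatment of genes that share exons.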

Additional observations from a re-analysis of the deposited data

How the results depend on the processing

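The counts of 431 higher and 790 lower genes moved by more than 1.5 times with the filter and the call rule. They were 206 and 359 at a minimum of 5 CPM, 179 and 282 where the whole interval had to lie beyond 2-fold, and 1021 and 1627 at a ratio of 1.5. The count of higher genes was 658 with no filter and 280 among protein-coding genes, where the lower genes numbered 1146 and 575. Scaling by total counts (405 and 852), by TMM over the pair (433 and 781) or by DESeq2 size factors (412 and 818), and summing genes that share exons (359 and 668), stayed within 1.5 times. With no filter the list medians changed sign for the BMP branch (-0.17), cholangiocyte markers (0.17), endothelial markers (0.48) and quiescence genes (-0.0032). Taking means instead, they changed sign for hyaluronan (-0.22), complement (-0.21), the BMP branch (-0.21), immediate early genes (-0.10), the IL-6 family (-0.12), quiescence genes (-0.0447) and metallothioneins (-0.0245). After summing, 12 named calls were lost, and the rises of the non-coding genes ENSG00000285628 (-0.14) and ENSG00000187951 (-0.26) turned to values below 0. The cause was not tested beyond the summing itself. No paired analysis was possible because each group has 1 library. For the same reason no library could be left out. The RVX-208 library was the shallowest, and genes under 3 CPM had the widest intervals.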
